A study of Rattus norvegicus with 10 samples.

Results

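Heat shock genes of the cytosol and of the mitochondrial matrix were followed in the liver of rats 24 h after total-body irradiation (TBI), with or without pretreatment with MASM, a derivative of the plant alkaloid matrine. Of 10 genes chosen by name (Hspa1a, Hspa1b, Hspa8, Hsph1, Dnajb1, Hspb1, Hsp90aa1, Hspd1, Hspe1 and Bag3), 8 were measured by 17 probes, among 40945 probes with a value on every array. Hspa1b and Dnajb1 were not matched to a probe through an accession number and were not analysed here. All rats were male Wistar rats, whose age was not given in the sources used here. Control rats (n = 3) received neither MASM nor radiation, TBI rats (n = 3) received 6.5 Gy of gamma rays according to the labels, and MASM + TBI rats (n = 4) were given 30 mg/kg MASM into the stomach on each of 3 days before the same dose. The doses named in the study's methods differ from the dose on the labels, and no liver of rats given MASM without radiation was analysed here, so the effect of MASM alone cannot be told apart from its effect in irradiated rats.

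Heat shock proteins are chaperones, which bind proteins that are unfolded or being made, keep them from clumping and help them to fold. Most genes of the family are switched on together by heat shock factor 1 (HSF1), which is held inactive by chaperones in unstressed cells and, once freed by damaged proteins, binds repeated short elements in their promoters. Some members, such as Hspa8, Hsp90aa1 and the mitochondrial pair Hspd1 and Hspe1, are also abundant in unstressed tissue, while Hspa1a is the classic inducible member.

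The letters that HSF1 binds, heat shock elements, are shown first because they are what the members are known to share. The promoter windows are those of RefSeq on the rat assembly GRCr8, 250 bases before to 50 bases after each annotated transcription start, and were given for 8 members (not for Hspa1b or Hsp90aa1). The search was for the units TTC and GAA in turn, with any 2 bases between units, in a run of 3 units that could begin with either, which covers both strands. Such a run occurred in 4 of the 8 windows (Hspa8, Hsph1, Hspd1 and Hspe1), against 267 of 33469 promoter windows in all, or 0.798%. A pair of units in either order, spaced the same way, reads alike on both strands and lies inside every longer run. It occurred in 7 of 8 windows, against 15.9% of all windows, and the window of Hspa1a had no match. Only exact units inside the window of the annotated start were sought. The lack of a match therefore does not show that Hspa1a has no heat shock element. Below, capitals mark every match, each sequence runs from 5′ to 3′ on the strand of its gene, and the windows lie at chr8:50080264-50080563 (plus strand) for Hspa8, chr9:64084077-64084376 (plus) for Hspe1, chr12:10427118-10427417 (plus) for Hsph1, chr12:26432252-26432551 (minus) for Hspb1 and chr1:192533210-192533509 (plus) for Bag3.
Hspa8: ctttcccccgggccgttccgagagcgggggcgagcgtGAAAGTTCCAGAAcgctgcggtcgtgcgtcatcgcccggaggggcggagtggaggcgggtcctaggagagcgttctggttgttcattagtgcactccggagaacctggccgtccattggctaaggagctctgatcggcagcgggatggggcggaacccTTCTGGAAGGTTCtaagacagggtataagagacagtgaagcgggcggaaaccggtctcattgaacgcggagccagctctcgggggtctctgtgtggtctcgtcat
Hspe1: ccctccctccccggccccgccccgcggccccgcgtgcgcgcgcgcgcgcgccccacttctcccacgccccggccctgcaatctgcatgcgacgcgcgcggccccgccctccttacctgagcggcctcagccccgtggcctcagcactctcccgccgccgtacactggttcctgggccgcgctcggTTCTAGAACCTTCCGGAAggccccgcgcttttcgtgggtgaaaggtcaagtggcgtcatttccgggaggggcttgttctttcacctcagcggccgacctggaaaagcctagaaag
Hsph1: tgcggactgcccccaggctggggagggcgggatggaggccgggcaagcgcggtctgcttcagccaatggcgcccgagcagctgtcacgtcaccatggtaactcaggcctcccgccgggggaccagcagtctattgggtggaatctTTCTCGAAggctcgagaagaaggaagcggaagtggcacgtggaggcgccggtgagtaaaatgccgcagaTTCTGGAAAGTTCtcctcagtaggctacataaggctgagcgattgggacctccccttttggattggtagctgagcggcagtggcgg
Hspb1: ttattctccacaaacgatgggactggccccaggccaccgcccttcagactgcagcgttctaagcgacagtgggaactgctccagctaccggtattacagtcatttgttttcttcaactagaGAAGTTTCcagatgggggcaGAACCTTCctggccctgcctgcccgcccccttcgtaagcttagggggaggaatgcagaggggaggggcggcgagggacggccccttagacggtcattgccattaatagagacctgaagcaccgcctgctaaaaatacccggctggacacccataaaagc
Bag3: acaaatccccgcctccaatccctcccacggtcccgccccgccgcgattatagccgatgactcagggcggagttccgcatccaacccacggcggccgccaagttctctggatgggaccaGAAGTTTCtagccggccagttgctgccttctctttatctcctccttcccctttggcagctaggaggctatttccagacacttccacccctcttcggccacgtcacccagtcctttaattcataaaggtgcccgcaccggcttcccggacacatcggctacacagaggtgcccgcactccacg

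The runs of 3 units in Hspa8 began 213 and 55 bases before the start, and that in Hsph1 began 36 bases before it. In Hspe1 overlapping runs began 65 and 60 bases before the start. Hspd1 and Hspe1 are transcribed away from each other, their windows share 211 bases, and the same run lies 242 bases before the start of Hspd1 on its own strand. Bag3 held only a pair of units, 132 bases before its start, and Hspb1 held pairs 129 and 109 bases before its start. These matches describe the letters only, since binding of HSF1 was not measured.

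**Figure D1:**
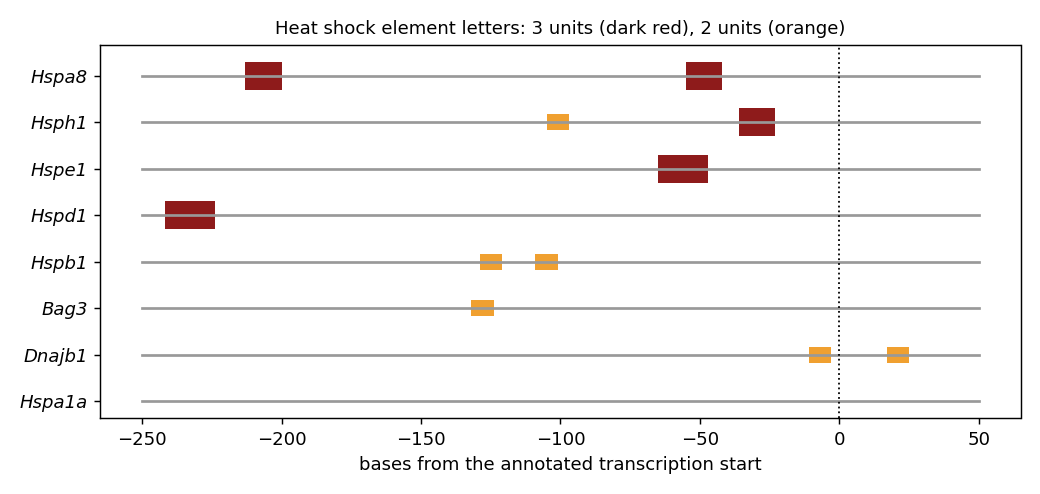
Position of heat shock element letters in the promoter windows of 8 members, with distance from the annotated transcription start in bases on the horizontal axis (negative values lie upstream) and 1 line per gene. Dark red bars are runs of 3 units and orange bars are pairs of units outside such a run. The 4 genes with a run of 3 units are on top, and Hspa1a, at the bottom, has no match.

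Each liver gave 1 array, read in the Cy3 colour, and precision is limited by how few rats there were. Values are log2 signals after quantile normalization between arrays. A difference of 1 is a doubling of the signal, and levels of different probes are not compared because probes differ in how strongly they bind. The brightest probe stands for a gene that has several. The share of spots well above background was 57.2% to 59.9% on control arrays, 64.1% to 70.1% on TBI arrays and 56.2% to 60.2% on MASM + TBI arrays. All TBI rats were on a slide of their own (slide 2), so TBI and slide cannot be told apart. On slide 1 MASM + TBI rat 3 shared the glass with the controls, and its 3 group mates were on slide 3. Groups were compared with limma in 1 model of all 10 arrays, with the Benjamini-Hochberg adjustment taken over 40945 probes, and a gene was called at an adjusted p under 0.05.

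The main result was a rise of Hsp90aa1 in both irradiated groups and a fall of Bag3 in TBI rats, while most other members had higher means in the irradiated groups with differences that did not pass the adjusted test. Between TBI and control rats, 6 of 8 genes had higher means and 2 had lower means, 1 was called higher and 1 lower, and the median difference was 0.24 against -0.03 over all probes. Of all probes, 2.44% were called higher and 3.19% lower in that comparison, 2305 in all. How the methods' t-test treats the variances is not given in the sources used here, so it was run with unequal variances, and equal variances were tried as well once the data had been seen. The background moved with the settings, to 7458 probes when arrays were scaled to the 75th percentile, 6742 with the slide as a random block, 10 with the methods' t-test (154 with equal variances) and, with 1 rat left out, 969 (without control rat 3) to 2787. Between MASM + TBI and control rats, 6 of 8 genes were again higher, with a median difference of 0.48 against 0.00 over all probes, and 1 was called higher, where 1.26% of all probes were. Of all probes 1225 were called in either direction, which moved to 2852 with the slide as a random block, 298 with the replicate block, 40 with the methods' t-test (551 with equal variances) and, with 1 rat left out, 490 and 491 (without control rats 2 and 3) to 1488. Between MASM + TBI and TBI rats 7 of 8 genes had higher means, the median difference was 0.16 against 0.04 over all probes, and 0 were called by limma, where 1.63% of all probes were called (666). That count was 5459 when arrays were scaled to the 75th percentile, 2048 with the slide as a random block and 22 with the replicate block. It was 4 with the methods' t-test (58 with equal variances) and, with 1 rat left out, 250 (without MASM + TBI rat 1) to 1268 (without TBI rat 3). Between the irradiated groups 2 genes had an unadjusted p under 0.05 in limma, where 17% of all probes did, and the methods' t-test called 0 after adjustment. Both comparisons with control share the same control rats, so that their values are not independent.

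Without overlap between the groups, 4 genes were higher and 1 was lower in TBI than in control rats, where 11.3% and 19% of all probes were. In MASM + TBI against control rats 5 genes were higher and 2 were lower without overlap, where 9.35% and 8.9% of all probes were. Among probes well above background on every array, as 7 of the 8 genes were, the shares that were higher without overlap were 11.8% and 14.4%. Between MASM + TBI and TBI rats 1 gene was higher and 1 was lower without overlap, where 12.7% and 5.88% of all probes were. The study's own rule asks for a fold change of 1.5 or more and an unadjusted p under 0.05. With the p of limma in place of that of the methods' t-test, 2 genes passed in TBI rats (12.6% of all probes) and 3 in MASM + TBI rats (8.06%), each against control, and 0 passed between the irradiated groups (7.98%). The 2 genes in TBI rats were Hsp90aa1 and Bag3, of which Bag3 passed only just, at 1.505-fold lower. With the means taken over linear signals, as for the methods' t-test here, the difference of Bag3 was -0.579 instead of -0.59. That is short of a fold change of 1.5. The 3 genes in MASM + TBI rats were Hsp90aa1, Hsph1 and Hspb1. Of these, Hspb1 would not pass by the methods' t-test (unadjusted p = 0.164, and 0.0564 with equal variances). Hsph1 would pass by that test only with equal variances (0.0623, and 0.0225). Across the 3 groups, the moderated F test of limma gave 2 genes with an adjusted p under 0.05, Hsp90aa1 (adjusted p = 0.0111) and Bag3 (adjusted p = 0.0443), where 5.65% of all probes passed.

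**Figure D2:**
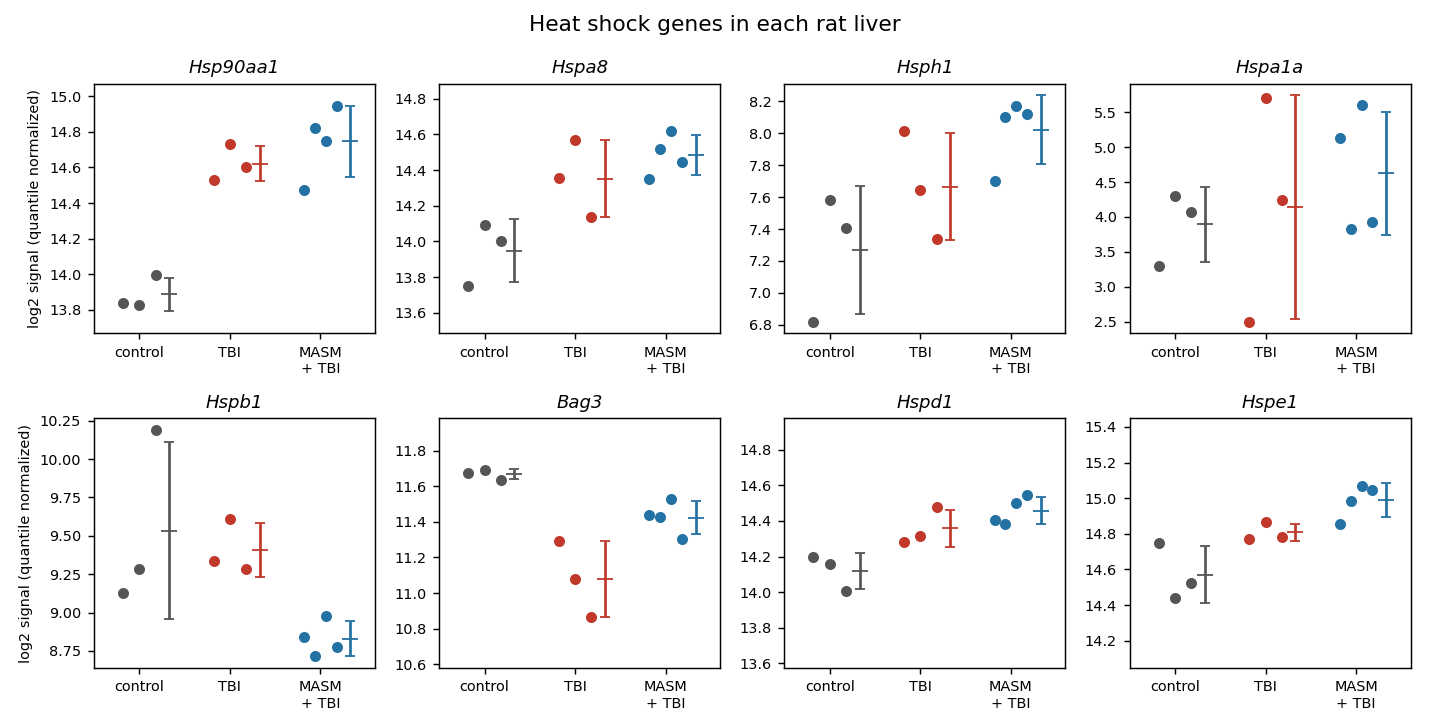
Log2 signal (quantile normalized, vertical axis, with a range of its own in each panel) of the 8 measured genes in 3 control, 3 TBI and 4 MASM + TBI rats, with 1 point per rat and, to the right of each group, its mean and SD. Hsp90aa1 is higher in every irradiated rat (14.47 to 14.94) than in every control rat (13.83 to 13.99), Bag3 is lowest in the TBI rats, and Hspa1a is scattered in all groups.

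Hsp90aa1 encodes the inducible cytosolic HSP90, which holds kinases and steroid receptors in a state ready for activation. Its log2 signal was 13.84, 13.83 and 13.99 in control rats 1 to 3, 14.53, 14.73 and 14.60 in TBI rats 1 to 3, and 14.47, 14.82, 14.75 and 14.94 in MASM + TBI rats 1 to 4. Every irradiated rat thus lay above every control rat, while both irradiated groups overlapped. In TBI rats Hsp90aa1 rose by 0.73 (SE 0.13, adjusted p = 0.0166 in limma), a 1.66-fold change with a 95% interval of 0.45 to 1.02 on the log2 scale. In MASM + TBI rats it rose by 0.86 (SE 0.12, adjusted p = 0.00892), or 1.81-fold. The irradiated groups were 0.12 apart (SE 0.12, adjusted p = 0.629), the MASM + TBI mean being higher, and the interval was -0.14 to 0.39. On slide 1 alone, MASM + TBI rat 3 lay 0.86 above the mean of the control rats, and the MASM + TBI rats on the other slide lay 0.86 above it as well. With the slide as a fixed block, which leaves that slide alone to inform the comparison, the difference was 0.86 with an adjusted p of 0.160 in limma.

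The other 3 probes of Hsp90aa1 were also higher, without overlap, in each irradiated group than in control rats. The probe with the largest difference had signals of 8.38, 8.67 and 8.61 in control rats, 9.42, 9.37 and 9.82 in TBI rats, and 9.54, 9.87, 9.89 and 9.84 in MASM + TBI rats. It rose by 0.99 (SE 0.15, adjusted p = 0.0111 in limma) in TBI rats and by 1.23 (SE 0.14, adjusted p = 0.00437), or 2.35-fold, in MASM + TBI rats. The first call was lost with only the 2 groups in the model (adjusted p = 0.0512) and by the methods' t-test (0.247, and 0.102 with equal variances), and the second by the methods' t-test with unequal variances (0.0729) and with the slide as a fixed block (0.0543). The third probe differed by 0.82 in TBI rats (adjusted p = 0.0643) and rose by 1.07 in MASM + TBI rats (adjusted p = 0.0306), a call lost in 6 of 10 fits with 1 rat left out (up to 0.114). The second probe, which varied more between rats, differed by 0.85 (adjusted p = 0.107) and 0.73 (adjusted p = 0.182). Its signals in TBI rats were 13.22, 13.24 and 12.33, so that TBI rat 3 lay close to the highest control rat at 12.31. For the brightest probe the adjusted p for TBI rats was 0.0518 and 0.0557 without control rats 1 and 2, and with the methods' t-test it was 0.189 for TBI rats and 0.104 for MASM + TBI rats (0.0746 and 0.0595 with equal variances).

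**Figure D3:**
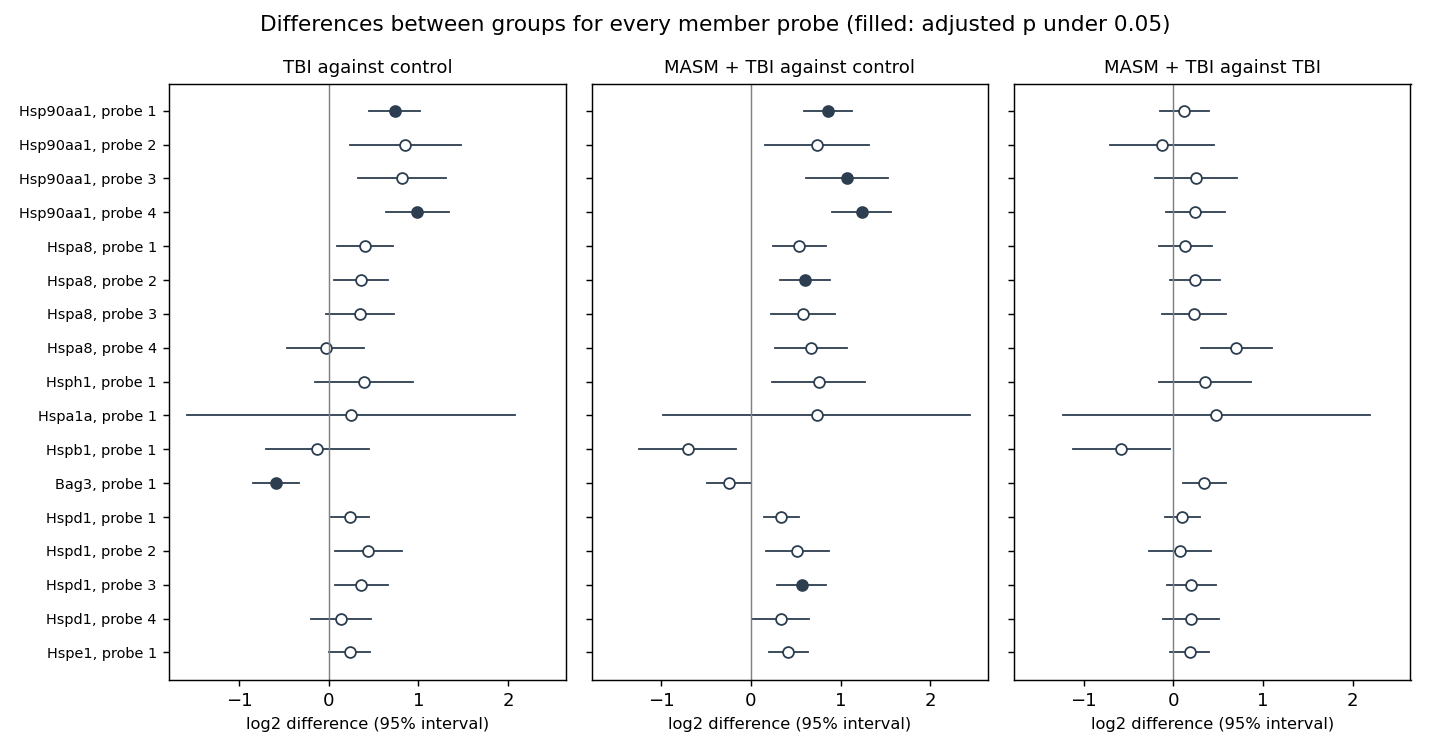
Log2 difference (horizontal axis) with its 95% interval from limma for each of the 17 probes of the 8 genes, in 3 comparisons, where filled circles have an adjusted p under 0.05 and probe 1 is the brightest of a gene. The 4 Hsp90aa1 probes lie to the right of 0 in both comparisons with control, Bag3 lies to the left, and no circle is filled between MASM + TBI and TBI.

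Hspa8 encodes the constitutive HSC70, which folds new proteins and strips clathrin from vesicles. Its log2 signal was 13.75, 14.09 and 14.00 in control rats, 14.35, 14.57 and 14.13 in TBI rats, and 14.35, 14.52, 14.62 and 14.45 in MASM + TBI rats. All irradiated rats lay above all control rats, by a narrow margin for TBI rat 3. The differences of 0.41 in TBI rats (SE 0.14, adjusted p = 0.126 in limma) and 0.54 in MASM + TBI rats (SE 0.13, adjusted p = 0.0685) did not pass the adjusted test. In MASM + TBI rats the brightest probe did pass with normexp (adjusted p = 0.0234), with dim probes left out (0.0461), with a trended and robust prior (0.0464) and with the slide as a random block (0.0332), the last of which also called it in TBI rats (0.0477). The second Hspa8 probe, at 12.65, 13.05 and 13.05 in control rats and 13.46, 13.45, 13.69 and 13.48 in MASM + TBI rats, did rise by 0.60 (SE 0.12, adjusted p = 0.0397), but the call was lost in 9 of the 10 fits with 1 rat left out, whose adjusted p ran from 0.0482 to 0.0958.

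The dimmest Hspa8 probe went another way than the other 3 in TBI rats. It measured 7.62, 8.11 and 8.21 in control rats, 7.92, 8.24 and 7.67 in TBI rats, and 8.60, 8.51, 8.71 and 8.76 in MASM + TBI rats. Control and TBI rats overlapped on this probe (difference -0.03, adjusted p = 0.934), and the MASM + TBI rats lay above all others. Its difference between MASM + TBI and TBI rats was 0.70 (SE 0.17, adjusted p = 0.103), while the brightest probe differed by 0.13 (adjusted p = 0.643). Hspa8 has many processed copies in mammalian genomes, and which transcripts each probe binds was not tested.

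Hsph1 encodes HSP110, which exchanges the nucleotide of HSP70 and helps it to dissolve protein clumps. Its log2 signal was 6.82, 7.58 and 7.41 in control rats, 8.01, 7.65 and 7.34 in TBI rats, and 7.70, 8.10, 8.17 and 8.12 in MASM + TBI rats. Control and TBI rats overlapped, whereas all MASM + TBI rats lay above all control rats. Its difference from control was 0.40 in TBI rats (SE 0.24, adjusted p = 0.362 in limma) and 0.75 in MASM + TBI rats (SE 0.23, adjusted p = 0.126). The first was 0.17 without control rat 1, 0.22 without TBI rat 1 and up to 0.56 with another rat left out.

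Hspa1a, the stress-inducible HSP70, was close to background in these livers. Its probe was well above background on 1 of 3 control arrays, 2 of 3 TBI arrays and 3 of 4 MASM + TBI arrays. The log2 signal was 3.29, 4.31 and 4.08 in control rats, 2.50, 5.70 and 4.24 in TBI rats, and 5.13, 3.83, 5.61 and 3.93 in MASM + TBI rats. The TBI rats alone spanned the lowest and the highest value of all 10 rats. The differences from control were 0.25 (SE 0.80, adjusted p = 0.878) in TBI rats and 0.73 (SE 0.75, adjusted p = 0.714) in MASM + TBI rats, with an interval of -1.57 to 2.08 for the first. That interval includes a doubling as well as a halving of the signal, and the difference turned to -0.05 without control rat 1 and to -0.52 without TBI rat 2. The gene is nearly identical in sequence to Hspa1b, and the probe's sequence was not analysed here.

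Hspb1 encodes HSP27 (HSP25 in rodents), a small heat shock protein that holds unfolded proteins and stabilises actin. Its log2 signal was 9.13, 9.28 and 10.19 in control rats, 9.34, 9.61 and 9.28 in TBI rats, and 8.84, 8.72, 8.98 and 8.78 in MASM + TBI rats. All MASM + TBI rats lay below all other rats, and control rat 3 lay far above the rest. The difference from control was -0.71 in MASM + TBI rats (SE 0.24, adjusted p = 0.168 in limma) and -0.13 in TBI rats (SE 0.25, adjusted p = 0.799). The irradiated groups differed by -0.58 (SE 0.24, adjusted p = 0.261). Without control rat 3 the difference between TBI and control rats turned to 0.20, and that between MASM + TBI and control rats shrank to -0.38.

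The probe of Hspb1 was printed on 10 spots of each array, which allows the error of the measurement to be set beside the spread between rats. The SD of the 10 spots lay between 0.04 and 0.08 on the 10 arrays. The SD between rats was 0.57 in control, 0.17 in TBI and 0.11 in MASM + TBI rats. In control rat 3 the spots ran from 10.10 to 10.26, and in control rat 2 from 9.19 to 9.36. The gap between these rats was thus larger than the spread of spots within an array, which covers neither labelling nor hybridisation.

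**Figure D4:**
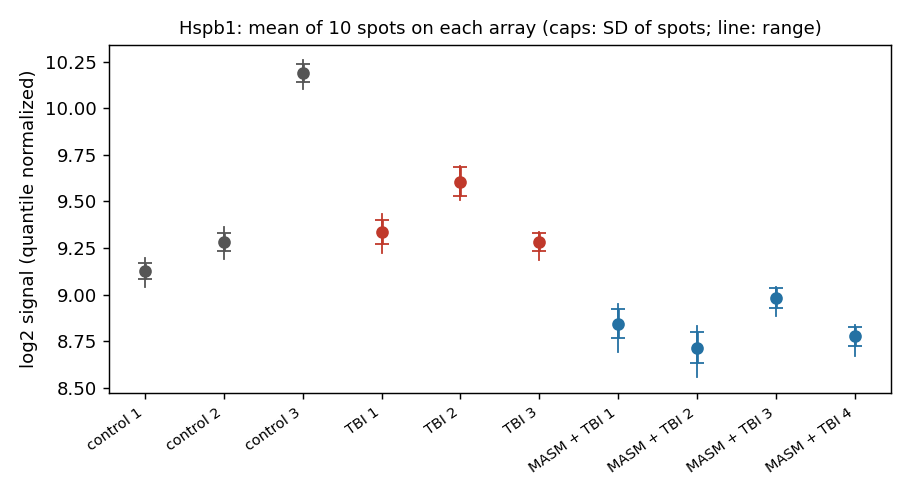
Log2 signal (quantile normalized, vertical axis) of the Hspb1 probe in each of 10 rats, with points for the mean of 10 spots on the array of that rat, caps for the SD of the spots and a thin line for their range. Control rat 3 stands above the other rats at 10.19, and the 4 MASM + TBI rats lie lowest, at 8.72 to 8.98.

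Bag3 encodes a cochaperone that links HSP70 to small heat shock proteins and to the removal of clumped proteins by autophagy. Its log2 signal was 11.68, 11.69 and 11.64 in control rats, 11.29, 11.08 and 10.86 in TBI rats, and 11.44, 11.43, 11.53 and 11.31 in MASM + TBI rats. The groups did not overlap, with control rats highest, TBI rats lowest and MASM + TBI rats between them, although TBI rat 1 (11.29) and MASM + TBI rat 4 (11.31) were nearly equal. Bag3 fell by 0.59 in TBI rats (SE 0.11, adjusted p = 0.0247 in limma), and its level there was 1.5-fold lower than in control rats. The difference from control was -0.24 in MASM + TBI rats (SE 0.11, adjusted p = 0.289), and that between MASM + TBI and TBI rats was 0.35 (SE 0.11, adjusted p = 0.155) with an interval of 0.10 to 0.59. The adjusted p of the fall was 0.0683, 0.0709 and 0.0708 without control rats 1, 2 and 3, 0.0592 without TBI rat 2, 0.0873 with only the 2 groups in the model and 0.307 with the methods' t-test (0.126 with equal variances). With a normexp background correction the difference between MASM + TBI and TBI rats was 0.37 with an adjusted p of 0.0299.

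Hspd1 and Hspe1 encode HSP60 and HSP10, the chamber and the lid of the chaperonin that folds proteins in the mitochondrial matrix. Hspd1 had log2 signals of 14.20, 14.16 and 14.01 in control rats, 14.28, 14.31 and 14.48 in TBI rats, and 14.40, 14.38, 14.50 and 14.54 in MASM + TBI rats. Hspe1 had 14.75, 14.44 and 14.52 in control rats, 14.77, 14.87 and 14.78 in TBI rats, and 14.86, 14.98, 15.07 and 15.05 in MASM + TBI rats. For both genes every irradiated rat lay above every control rat, for Hspe1 by 0.02 between control rat 1 and TBI rat 1. The difference of TBI rats from control was 0.24 for Hspd1 (SE 0.09, adjusted p = 0.163 in limma) and 0.24 for Hspe1 (SE 0.10, adjusted p = 0.199). In MASM + TBI rats it was 0.34 for Hspd1 (SE 0.09, adjusted p = 0.0791) and 0.42 for Hspe1 (SE 0.09, adjusted p = 0.0551). The mean of MASM + TBI rats exceeded that of TBI rats by 0.10 for Hspd1 (adjusted p = 0.592) and by 0.18 for Hspe1 (adjusted p = 0.376).

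Of the 4 probes of Hspd1, the third was called in MASM + TBI rats. It measured 10.86, 10.62 and 10.74 in control rats, 10.90, 11.24 and 11.16 in TBI rats, and 11.43, 11.07, 11.32 and 11.39 in MASM + TBI rats, without overlap between control and either irradiated group. It rose by 0.56 in MASM + TBI rats (SE 0.12, adjusted p = 0.0480 in limma), and with each rat left out in turn the call was lost in 8 of 10 fits, with adjusted p-values from 0.0392 to 0.155. The second probe differed by 0.44 in TBI rats and 0.52 in MASM + TBI rats, and the fourth by 0.14 and 0.33, with no call. In 3 alternatives the brightest probe of Hspd1 passed in MASM + TBI rats, with an adjusted p of 0.0197 with normexp, 0.0435 with a trended and robust prior and 0.0349 with the slide as a random block, and with normexp it also passed in TBI rats (0.0362). The mean of its 4 probes differed by 0.44 (adjusted p = 0.0354). Hspe1 passed in MASM + TBI rats in the same 3 alternatives (0.0294, 0.0310 and 0.0246) and with dim probes left out (0.0458).

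The members differed in their spread between rats of a group. The SD pooled over the groups was 0.09 for Hspd1, 0.11 for Hspe1, 0.13 for Bag3 and 0.15 for Hsp90aa1, against a median of 0.20 over probes well above background on every array. It was 0.31 for Hsph1, 0.33 for Hspb1 and 1.07 for Hspa1a. The group means ran upward from control to TBI to MASM + TBI for 6 of 8 genes, and for 14.6% of all probes. Among probes well above background on every array that share was 18.4%. Hspa1a, which lay close to background, was among the 6 genes. The exceptions were Hspb1, which ran downward, and Bag3, with its lowest mean in TBI rats.

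Genes that control or assist these chaperones were taken from lists of related genes, of which 63 of 69 were measured outside the endoplasmic reticulum. Hsf1 itself had log2 signals of 9.13, 9.14 and 9.44 in control rats, 9.39, 9.29 and 9.12 in TBI rats, and 9.16, 9.25, 9.15 and 9.16 in MASM + TBI rats, and the groups overlapped. Its difference from control was 0.03 in TBI rats (adjusted p = 0.897 in limma), with an interval of -0.21 to 0.27, and -0.06 in MASM + TBI rats (adjusted p = 0.892), and the first turned to -0.02, -0.02 and -0.03 without control rat 1, control rat 2 or TBI rat 1. The measured level of its transcript gives no information on the activity of the protein, which is set after translation. Hsp90ab1, the constitutive partner of Hsp90aa1, was at 14.19, 13.93 and 14.13 in control rats, 14.49, 14.54 and 14.38 in TBI rats, and 14.04, 14.37, 14.56 and 14.38 in MASM + TBI rats. It was higher in all TBI than in all control rats, with a difference of 0.39 (SE 0.14, adjusted p = 0.135), and its difference in MASM + TBI rats was 0.25 (adjusted p = 0.370).

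Over these 63 genes, 4 were called higher and 2 lower in TBI rats (9.52%, against 5.63% of all probes), with a median difference of 0.03. In MASM + TBI rats 2 were called higher and 1 lower (4.76%, against 2.99% of all probes), and between the irradiated groups 1 was called lower (1.59%, against 1.63%). Among probes well above background on every array, the shares called in these 3 comparisons were 6.77%, 4.33% and 1.63%. The rise of Cryaa was the largest in TBI rats after quantile normalization, but smaller than that of Dnajb4 with normexp (0.41 against 0.68). Cryaa is a small heat shock protein known as alpha A crystallin of the lens. Its log2 signal, dim but well above background on all arrays, was 4.36, 4.55 and 4.33 in control rats, 5.92, 5.93 and 5.79 in TBI rats, and 4.55, 4.76, 4.47 and 5.13 in MASM + TBI rats, so that the TBI rats stood above all others. Cryaa rose by 1.46 in TBI rats (SE 0.16, adjusted p = 0.00312 in limma). In MASM + TBI rats it was 2.22-fold lower than in TBI rats (difference -1.15, SE 0.15, adjusted p = 0.0123). With normexp, which compresses dim signals through its offset, the differences shrank to 0.41 and -0.31 and both were still called, with adjusted p-values of 0.00269 and 0.0193. By the methods' t-test both calls were lost (0.140 and 0.278), of which the first held with equal variances (0.0352, and 0.119 for the second), and with only the 2 groups in the model that between MASM + TBI and TBI was lost (0.0529).

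Among other small heat shock proteins, Hspb6 fell by 0.93 in TBI rats (adjusted p = 0.0294) and by 0.86 in MASM + TBI rats (adjusted p = 0.0415), and Hspb8, the partner of Bag3, rose by 0.68 in MASM + TBI rats (adjusted p = 0.0488). Of 23 measured cochaperones, Dnajb4 rose by 1.2 (adjusted p = 0.0401), Dnajb5 by 0.66 (adjusted p = 0.0252) and Bag5 by 0.67 (adjusted p = 0.0185) in TBI rats, the first and second of which deliver clients to HSP70. Fkbp5, a cochaperone of HSP90 at steroid receptors that is itself induced by glucocorticoids, fell by 0.82 (adjusted p = 0.0370). None of the 13 measured mitochondrial chaperones and proteases was called by limma in any comparison, and 4 of them had an unadjusted p under 0.05 in TBI rats, where 23.5% of all probes did. Their median difference was -0.12 in TBI and 0.02 in MASM + TBI rats. Of the 8 subunits of the cytosolic chaperonin CCT, Cct5 rose by 0.34 in MASM + TBI rats (adjusted p = 0.0347). For comparison, 14 of 15 chaperones of the endoplasmic reticulum were measured, of which Hsp90b1 rose by 0.51 (adjusted p = 0.0116) and Herpud1 fell by 0.53 (adjusted p = 0.0369) in TBI rats. With 1 rat left out, the calls in TBI rats were lost in 9 of 10 fits for Dnajb4, 6 for Fkbp5, 8 for Herpud1, 4 for Dnajb5, 4 for Hspb6 and 2 for Bag5, and those in MASM + TBI rats in 8 each for Hspb6, Hspb8 and Cct5. Scaling to the 75th percentile also ended the calls of Herpud1 in TBI rats and of Hspb6, Hspb8 and Cct5 in MASM + TBI rats, with adjusted p-values of 0.0521 to 0.0658, and none of the 10 calls of these 9 genes held by the methods' t-test with unequal variances (0.0762 to 0.317), while with equal variances that of Cct5 did (0.0357). In TBI rats the mean of a gene's probes ended the calls of Dnajb5 (adjusted p = 0.115), Fkbp5 (0.0652), Herpud1 (0.0723) and Hsp90b1 (0.255, with a difference of 0.20). With only the 2 groups in the model those of Dnajb4 (0.123), Bag5 (0.0550), Fkbp5 (0.103), Hsp90b1 (0.0643) and Hspb6 (0.0742, and 0.0628 in MASM + TBI rats) were lost, and with the slide as a fixed block those of Hspb6 (0.267) and Cct5 (0.155) in MASM + TBI rats were lost. With normexp all 10 calls held, but the differences in TBI rats shrank to 0.68 for Dnajb4, 0.28 for Dnajb5, 0.31 for Bag5 and -0.47 for Hspb6, and to -0.46 for Hspb6 in MASM + TBI rats.

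**Figure D5:**
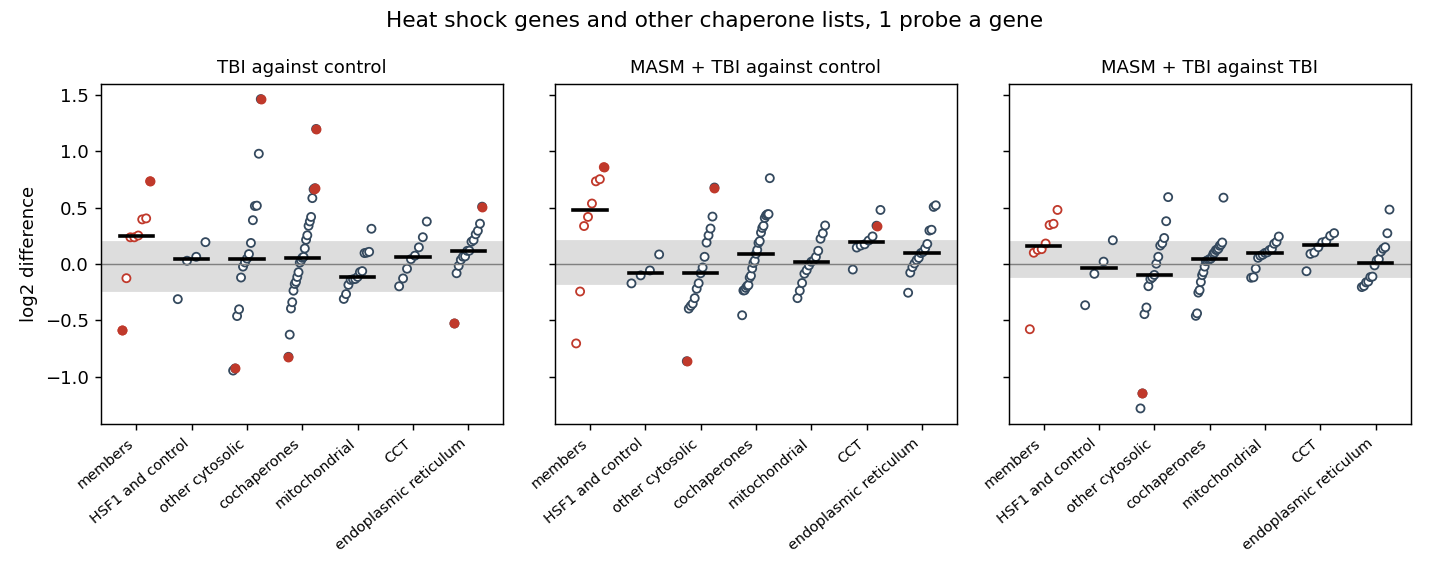
Log2 difference (vertical axis) of the 8 measured heat shock genes and of the lists of related genes, 1 point per gene sorted by value, in 3 comparisons. Filled points have an adjusted p under 0.05, black bars are medians, and the grey band is the interquartile range of the probes well above background on every array. Among the 8 genes Hsp90aa1 is filled in both comparisons with control (0.73 and 0.86) and Bag3 in the first (-0.59), and no point of the mitochondrial list is filled.

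The genes whose levels correlated most with a mean over members were sought among 8432 genes with a signal well above background on every array, as a description over 10 arrays that share their groups. The pattern of the cytosolic members was the mean of the 5 (all but Hspa1a) whose probe was well above background on every array, each centred on its own mean. These 5 did not move together, and the mean followed Hsph1 (r = 0.89), Hspa8 (0.88) and Hsp90aa1 (0.70) but not Hspb1 (-0.03) or Bag3 (-0.17), so a gene close to it is not close to every member. Pearson's r with it was among the highest for Ahsa1 (0.89), Ciao2b (0.89), Grwd1 (0.88) and Mrpl49 (0.87). Ahsa1 encodes the activator of the HSP90 ATPase, and it differed from control by 0.14 in TBI and 0.19 in MASM + TBI rats. With the mean of Hspd1 and Hspe1, r was highest for Cst6 (0.98), Ctsk (0.95), Cdc37l1 (0.95), Slc25a3 (0.94) and Scfd2 (0.94).

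The labelled tissue was checked on marker genes. All 8 hepatocyte markers were well above background on every array, their summed linear signal was 1328000 to 1407000 in control, 1284000 to 1474000 in TBI and 1376000 to 1483000 in MASM + TBI rats, and 0 were called in any comparison. Of 8 measured T lymphocyte markers, 3 fell in TBI rats and 2 in MASM + TBI rats, where 3.19% and 1.73% of all probes were called lower, with sums of 613.5 to 844.7, 346.3 to 532.8 and 255.8 to 460.7. Cd3e and Cd5 of that list were well above background on no array. Of the other lists, 1 of 4 B lymphocyte and 1 of 6 stellate cell markers fell in each irradiated group, and no marker of Kupffer cells, neutrophils, sinusoidal endothelium, cholangiocytes or erythroid cells was called. The summed signals of some lists nonetheless separated from control without overlap. In MASM + TBI rats those of Kupffer cells (37620 to 46680, against 47610 to 67750 in control), stellate cells (9378 to 10580, against 12420 to 14640), erythroid cells (1153 to 1715, against 1841 to 4576) and B lymphocytes (137.9 to 179.8, against 189.8 to 233.1) were lower. In TBI rats that of sinusoidal endothelium was higher (16890 to 20810, against 12840 to 15760). In bulk liver RNA fewer cells of a type and less RNA per cell cannot be told apart, and the part of these markers in the differences of the heat shock genes was not tested.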

How the data were processed

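Liver RNA of 10 rats had been hybridised to 1-colour rat arrays, 1 per rat. The authors deposited linear spot intensities from Agilent Feature Extraction 10.7, background-subtracted but not normalized across arrays, and a table of the same intensities. Control spots (1639 of 45018), spots marked as outliers (76 to 112 per array) and 67 probes lacking a value on some array were left out, and no spot was saturated. After log2 transformation and quantile normalization, repeated spots of a probe were averaged. Accession numbers named 16968 of 41012 probes through RefSeq (GRCr8). The array design rests on an older assembly, so that probe positions are not given.

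Group means were fitted with limma 3.58.1 in R 4.3.3 (prior degrees of freedom 1.43), which was tested on simulated data, and plots were made with matplotlib 3.10.9. The members, lists and tests were chosen with earlier results of these data known. Every measured member is named, with Hsf1, Hsp90ab1 and, per related list and comparison, up to 3 genes called in each direction. The genes most like the members were the 5 with the highest r, of which 1 is not reported here. Alternatives were 75th percentile scaling, normexp (offset 50, on median intensities), leaving out dim probes, 2 groups per model, the methods' t-test (unequal variances and, added after seeing the data, equal variances), a plain analysis of variance, a trended and robust prior, replicate and slide blocks, the mean of a gene's probes, and each rat left out. The labels do not say more of the rats than their group and number. The p-values weigh a difference between groups against the spread between arrays within groups. With 1 array per rat, that spread holds labelling and hybridisation as well as the rats.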

Additional observations from a re-analysis of the deposited data

Results flagged for a closer look

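Among 29 probes of the members and named related genes, the 4 MASM + TBI rats were checked for a value far from the other 3, which chance alone would flag in about 5% of probes. The second Hspa8 probe was at 13.69 in MASM + TBI rat 3, with the other rats at 13.45 to 13.48. Hsph1 was at 7.70 in MASM + TBI rat 1, with the others at 8.10 to 8.17. The fourth Hsp90aa1 probe was at 9.54 in the same rat, with the others at 9.84 to 9.89. Dnajb5, a cochaperone of HSP70, was at 6.28 in MASM + TBI rat 3, with the others at 5.86 to 5.90. MASM + TBI rat 3 was the only rat of its group on the slide of the control rats.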

How the results depend on the processing

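Of 8 genes, limma called 2 in TBI and 1 in MASM + TBI rats against control, 0 between the irradiated groups and 2 across the 3 groups. The count between TBI and control moved to 1 with only the 2 groups compared and to 0 with the methods' t-test, with unequal or equal variances, and it was 3 with normexp (Hspd1 gained) and 3 with the slide as a random block (Hspa8 gained). Between MASM + TBI and control it was 4 with normexp, 3 with dim probes left out, 4 with a trended and robust prior, 4 with the slide as a random block (consensus correlation -0.13), 2 for the mean of a gene's probes, 0 with the slide as a fixed block and 0 with the methods' t-test of either kind. Between MASM + TBI and TBI it was 1 with normexp (Bag3). Across the groups it was 5 with normexp, 5 with the slide as a random block and 1 by a plain analysis of variance. With the replicate block the counts were 1, 0 and, across the groups, 1, but rats with the same number did not deviate together (correlations -0.12 to 0.17, median 0.02), so the numbers were not taken to pair the rats. With each rat left out, the counts ran from 0 to 2, from 1 to 2, from 0 to 0 and from 1 to 3. The count of TBI against control was 0 without control rat 1 or 2, and 1 without control rat 3 or TBI rat 2. Differences that changed sign with a rat left out had ranges of -0.52 to 1.08 (Hspa1a, TBI against control), -0.34 to 1.26 (Hspa1a, MASM + TBI against TBI), -0.33 to 0.20 (Hspb1, TBI against control), -0.031 to 0.129 (Hsf1, TBI against control), -0.111 to 0.042 (Hsf1, MASM + TBI against control) and -0.034 to 0.169 (Hspb6, MASM + TBI against TBI). The difference of Hsp90ab1 between MASM + TBI and TBI turned to 0.061 for the mean of its probes. The causes were not tested. Of the remaining values under the alternatives, 1303 kept their side of the threshold and 163 lost and 30 gained a call. Hspa1a lay near background, which limits what its values can show.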
